A study of Mus musculus with 8 samples.

Results

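The ATP-binding cassette (ABC) drug and lipid transporters were examined in the pre-B leukaemia lines 18-81 and 70Z/3. They comprised 9 mouse genes: Abcb1a, Abcb1b, Abcg2, Abcc1, Abcc3, Abcc4, Abcc5, Abcg1 and Abca1. The probes were those that the array files assign to these genes by name or by RefSeq accession, which gave 12 probes among the 55681 non-control probes of the array, and 9 of 36315 gene names. The genes were chosen on their replicate differences between the duplexes, which were known for both lines, so those differences are given as a description without a test. The rule of choice did not use the comparison of the lines, which is tested. The genes and the lists were, however, chosen with earlier results of these data known.

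The arrays were 8 one-colour (Cy3) Agilent mouse arrays on 1 slide, in 4 groups of 2. Cells of the line 18-81 received pre-miR-125b or the control duplex miR-Neg, and cells of the line 70Z/3 received the same pair of duplexes. All cells were transfected with 10 nM of a synthetic duplex, had their medium changed at 8 hours and were harvested for total RNA at 48 hours. The 2 replicates of each group came from 2 independent experiments, and each line is a single established culture, so the comparison of lines is about these 2 cultures. No untransfected cells were analysed here. Each group occupied 1 column of the slide, so effects of the column and of the group cannot be told apart.

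ABC transporters use the energy of ATP hydrolysis to move substrates across membranes. Abcb1a and Abcb1b are the rodent P-glycoprotein genes, Abcg2 is the breast cancer resistance protein that also marks side-population stem cells, and the Abcc genes encode multidrug resistance-associated proteins. Abca1 and Abcg1 export cholesterol and phospholipid to lipoprotein acceptors and are target genes of the liver X receptors (LXR). A microRNA represses transcripts chiefly through matches to its seed, bases 2 to 8 from its 5′ end.

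The mature strand that the transfected duplex supplies is shown with its seed in capitals, from RefSeq (GRCm38.p6). It is encoded at chr9:41581940-41581961 and at chr16:77646279-77646300, both on the plus strand.
miR-125b-5p: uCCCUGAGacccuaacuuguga
Of the 12 transporter probes, 0 held the 7-base match to this seed, which says nothing of the rest of each transcript. The results below treat the probes of the paralogs Abcb1a and Abcb1b separately. A stretch of each 60-base probe is shown around their longest common run, which is in capitals. The Abcb1a probe lies at chr5:8748075-8748134 and the Abcb1b probe at chr5:8865925-8865984 (mm9, plus strand).
Abcb1a probe, bases 27 to 56: atccctaccacCTAAGTAagcagcaaggtg
Abcb1b probe, bases 31 to 60: tgactatctgaggtgCTAAGTAtttttaat
The run was 7 bases long. The best ungapped alignment of the 2 probes at any offset matched at 21 positions, and the length of its overlap was not recorded. Across 68 probes of 50 ABC genes, the longest run that a transporter probe shared with a probe of another ABC gene was 12 bases. These comparisons set probes against probes only. No transcript sequences were compared, so whether either Abcb1 probe also binds the transcript of the other paralog was not tested. The exon or UTR position of the probes was not analysed here.

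Values below are levels or differences on the log2 scale of the processed intensity, with 0 at the 75th percentile of each array. A level applies to 1 probe, so it is not known which of 2 genes is the more abundant. The only quantity taken across probes is Abcb1a minus Abcb1b on the same array, which is compared between lines. The 75th percentile was 504.0 to 725.1 intensity units on 7 arrays and 337.7 on the 70Z/3 miR-Neg array of replicate 2, which also had the smallest share of probes well above background, 38.0% against 41.7% to 45.1% on the others. Arrays of the same line correlated at 0.97 to 0.995 and arrays of different lines at 0.846 to 0.876. Of 13 B-cell precursor markers, 11 were well above background on all 4 arrays of each line, including Cd79a, Vpreb1 and Pax5, and Rag1 and Rag2 were on none. Their summed linear level ranged over 366 to 404 in 18-81 and over 730 to 1575 in 70Z/3, in units of the 75th percentile. Of 11 myeloid markers, 5 were above background on all 18-81 arrays (sum 44.7 to 81.2) and 4 on all 70Z/3 arrays (sum 32.4 to 48.2), and Adgre1 and Cd14 were above background on no array of either line. Of 10 T-cell markers, 7 were above background on all 18-81 arrays (sum 16.2 to 25.4) and 5 on all 70Z/3 arrays (sum 36.4 to 136), with Cd8a and Thy1 on none. The sum of 5 erythroid markers was 0.764 to 1.44 in 18-81 and 0.273 to 0.408 in 70Z/3, while the sums of 7 stromal and 4 endothelial markers overlapped between the lines. The part of these marker differences in the results was not tested.

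Of the 9 transporters, 7 were well above background on all arrays of both lines, 1 (Abcc1) in 18-81 only and 1 (Abcc3) in neither. Of the 8 transporter genes that entered the fit, 2 were higher in 18-81 (Abcc1 and Abcg1), 3 were lower (Abcg2, Abcb1a and Abcb1b) and 3 did not pass an adjusted p of 0.05 (Abcc4, Abcc5 and Abca1), by limma with Benjamini-Hochberg adjustment over all genes. Among all 18791 genes with a p-value, 31.7% passed, 15.6% higher and 16.2% lower in 18-81. Abcc1 entered the fit through 18-81 alone and so had to differ. Of the 7 measured in both lines, 1 was higher, 3 were lower and 57.1% were called. The like set is the 14654 genes well above background on all arrays. In a fit of those genes alone, 3513 passed, among them 4 of the 7 transporters. Over all genes, 9032 were called in a fit blocked by replicate number and 5965 without that block, and 5 transporters were called in either fit. The ninth gene, Abcc3, which exports conjugated bile salts and glucuronides, did not enter: its probe (chr11:94204612-94204671, minus strand, mm9) was not well above background on any of the 8 arrays.

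**Figure D1:**
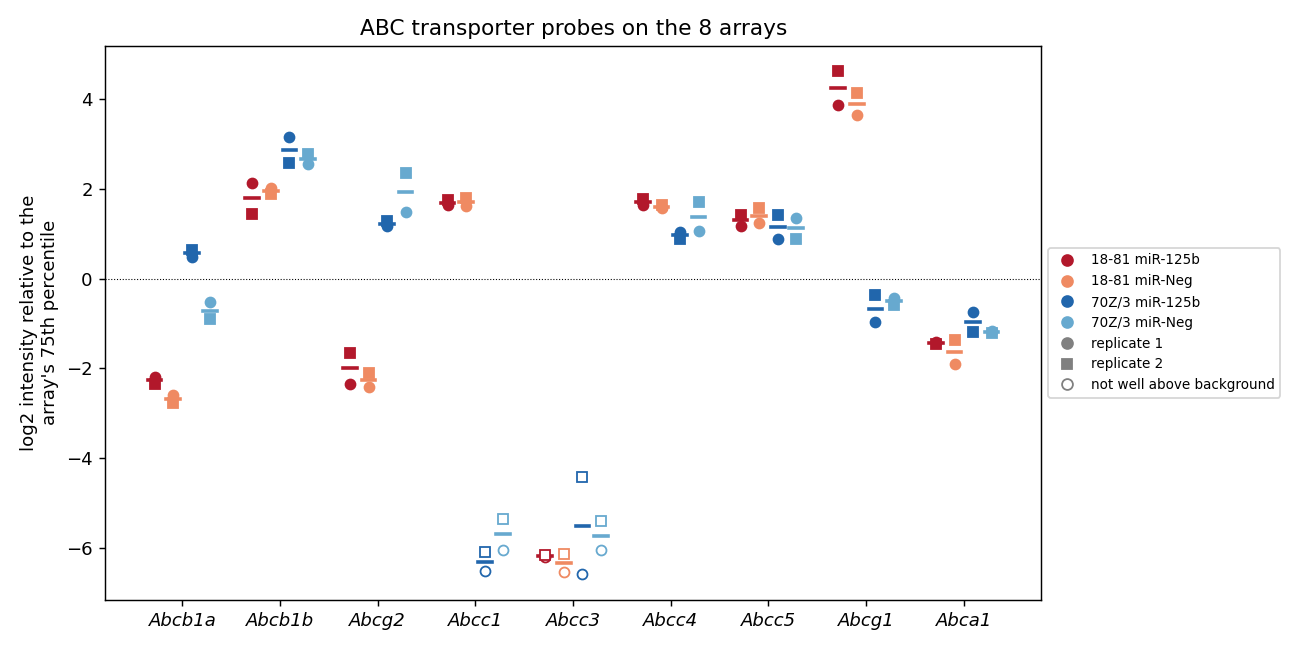
Log2 level of each transporter on every array, relative to the array's 75th percentile, with 18-81 groups left of 70Z/3 groups and miR-125b left of miR-Neg; bars are group means, circles and squares are replicates 1 and 2, and open symbols are not well above background. Abcb1a and Abcg2 lie lower and Abcg1 and Abcc1 lie higher on every 18-81 array than on any 70Z/3 array. Abcc5 is shown by its brightest probe.

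The drug exporter Abcg2 had the largest decrease in 18-81 among the 8 tested transporters. Its probe (chr6:58642312-58642371, plus strand, mm9) read −2.35 and −1.65 in 18-81 with miR-125b, −2.41 and −2.09 in 18-81 with miR-Neg, 1.18 and 1.27 in 70Z/3 with miR-125b, and 1.49 and 2.35 in 70Z/3 with miR-Neg. Every 18-81 array was thus below every 70Z/3 array. The difference between lines was −3.70 ± 0.27 (SE, 4 arrays per line), 13.0-fold lower in 18-81, with an adjusted p of 1.66e-05 in limma. The 4 replicate pairs gave −3.53, −2.92, −3.90 and −4.45. Of all genes tested, 6.76% had a difference at least as large.

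Both P-glycoprotein genes were well above background on all 8 arrays, and both were lower in 18-81. The Abcb1a probe read −2.18 and −2.35 in 18-81 with miR-125b, −2.58 and −2.77 in 18-81 with miR-Neg, 0.49 and 0.65 in 70Z/3 with miR-125b, and −0.53 and −0.89 in 70Z/3 with miR-Neg. The lines did not overlap, and the difference was −2.40 ± 0.19 (95% interval −2.85 to −1.95), 5.28-fold lower in 18-81 with an adjusted p of 3.08e-05 in limma.

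Abcb1b read 2.14 and 1.45 in 18-81 with miR-125b, 2.02 and 1.88 in 18-81 with miR-Neg, 3.14 and 2.58 in 70Z/3 with miR-125b, and 2.56 and 2.79 in 70Z/3 with miR-Neg. The highest 18-81 array lay below the lowest 70Z/3 array, and the difference was −0.90 ± 0.24, 1.86-fold lower in 18-81 (limma adjusted p = 0.024, 95% interval −1.46 to −0.33). This call was lost when any of 5 arrays was left out: the adjusted p was 0.101 without 70Z/3 miR-125b replicate 1, 0.0545 without 18-81 miR-Neg replicate 1, 0.0621 without 70Z/3 miR-Neg replicate 2, 0.0764 without 18-81 miR-Neg replicate 2 and 0.0783 without 18-81 miR-125b replicate 2. It was also lost without the intensity filter (0.0637), within the miR-125b arrays alone (0.0637) and within the miR-Neg arrays alone (0.191).

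The paralogs lie next to each other on chromosome 5, in the RefSeq order Rundc3b, Abcb1a, Abcb1b, Abcb4. The Abcb1a level minus the Abcb1b level on the same array averaged −4.34 ± 0.40 in 18-81 and −2.84 ± 0.74 in 70Z/3 (SD, n = 4 arrays each), with ranges of −4.65 to −3.79 and −3.68 to −1.93. The line difference in this quantity was −1.51 (exact permutation test, two-sided p = 0.0286, the smallest p that 4 against 4 arrays allow). With arrays exchanged only within an experiment, the p was 0.0556 by exact permutation, the smallest that 36 arrangements allow, so the unequal difference is not past the threshold in that test. The quantity includes the duplex differences of Abcb1a described below, which the rule of choice used. The first test also exchanged arrays across duplexes and experiments. Neither p is therefore read as support for an unequal difference. Within the miR-Neg arrays alone the line difference was −1.97 for Abcb1a and −0.72 for Abcb1b. Within the miR-125b arrays alone it was −2.84 and −1.07. The third gene of this cluster, Abcb4, a phospholipid floppase of the liver, went the other way, at 0.94 ± 0.26 higher in 18-81 (limma adjusted p = 0.027).

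The start regions of the paralogs are shown because the genes are adjacent paralogs. Each is 300 bases from RefSeq (GRCm38.p6), 250 before and 50 after the start, on the plus strand, with motif matches on either strand in capitals. The Abcb1a window is chr5:8566841-8567140 and the Abcb1b window is chr5:8797897-8798196.
Abcb1a promoter: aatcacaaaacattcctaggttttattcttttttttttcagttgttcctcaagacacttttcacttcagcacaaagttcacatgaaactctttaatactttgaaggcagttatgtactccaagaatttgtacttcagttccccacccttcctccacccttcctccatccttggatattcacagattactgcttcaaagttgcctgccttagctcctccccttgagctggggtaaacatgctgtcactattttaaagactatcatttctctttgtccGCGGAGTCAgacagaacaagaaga
Abcb1b promoter: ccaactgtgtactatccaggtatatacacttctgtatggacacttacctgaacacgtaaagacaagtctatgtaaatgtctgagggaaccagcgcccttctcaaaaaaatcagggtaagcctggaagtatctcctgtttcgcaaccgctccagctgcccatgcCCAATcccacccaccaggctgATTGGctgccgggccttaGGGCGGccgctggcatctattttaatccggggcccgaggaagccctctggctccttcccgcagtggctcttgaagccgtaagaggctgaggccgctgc
The Abcb1a window held 2 CpG dinucleotides, and 23.3% of 32851 mouse windows held no more. Its capitals mark the reverse complement of an antioxidant response element core, TGACNNNGC, which 12.4% of all windows hold. The Abcb1b window held 12 CpG dinucleotides (62.1% of windows held no more), 2 CCAAT boxes on opposite strands (37.4% of windows hold CCAAT) and 1 GC box, GGGCGG (35.7% of windows). Neither window held TATAAA (13.6% of windows), the Myc-type E-box CACGTG (7.15%) or the AP-1 site TGANTCA (7.81%). Windows were given for 6 of the 9 genes, which leaves Abcc1, Abcc3 and Abcg1 without one here. These are matches of letters only, and whether either line uses these starts was not tested.

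Among the multidrug resistance-associated proteins, Abcc1 was present in 18-81 and not measurable in 70Z/3. Abcc1 exports glutathione conjugates, leukotriene C4 and anthracyclines. Its probe (chr16:14474551-14474610, plus strand, mm9) read 1.63 and 1.75 in 18-81 with miR-125b and 1.62 and 1.81 in 18-81 with miR-Neg. It was not well above background on any 70Z/3 array, where it read −6.51 and −6.10 with miR-125b and −6.03 and −5.34 with miR-Neg. The mean of the 18-81 arrays was 1.70, against a measured mean of −6.00 and a floor of −4.49 in 70Z/3. Against that floor Abcc1 was at least 73.3-fold higher in 18-81 (limma adjusted p = 1.44e-07). That p rests on 70Z/3 values that carry no level, and the bound depends on how background is handled: with normexp correction and an offset of 50 the fitted difference was 4.39 on the log2 scale, which is below the bound's 6.20. The floor is the mean, over the 70Z/3 arrays, of the lowest signal among probes well above background.

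Abcc4, which exports cyclic nucleotides, prostaglandins and nucleotide analogues, did not differ past the threshold. Its probe (chr14:118882104-118882163, minus strand, mm9) read 1.64 and 1.77 in 18-81 with miR-125b, 1.58 and 1.63 in 18-81 with miR-Neg, 1.05 and 0.89 in 70Z/3 with miR-125b, and 1.06 and 1.70 in 70Z/3 with miR-Neg. Only the dimmest array, 70Z/3 miR-Neg replicate 2, reached the 18-81 levels. The line difference was 0.48 ± 0.21 (limma adjusted p = 0.13), and without that array it was 0.64 with an adjusted p of 0.0472.

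Abcc5, an exporter of cyclic GMP and nucleotide analogues, was measured by 4 probes on chromosome 16 (minus strand, mm9). The brightest, at chr16:20331568-20331627, was printed as 10 spots per array, and the spread of its spots within an array was 0.023 to 0.217 (SD, log2). It read 1.18 and 1.42 in 18-81 with miR-125b, 1.23 and 1.57 in 18-81 with miR-Neg, 0.89 and 1.42 in 70Z/3 with miR-125b, and 1.36 and 0.89 in 70Z/3 with miR-Neg. The lines overlapped, and the difference was 0.21 ± 0.23 (limma adjusted p = 0.55). The 3 other probes, each tested alone, gave −0.25 (adjusted p = 0.47), 0.16 (adjusted p = 0.698) and −0.18 (adjusted p = 0.571), so the probes did not share a sign. The mean of all 4 probes gave −0.015 (limma adjusted p = 0.966).

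**Figure D2:**
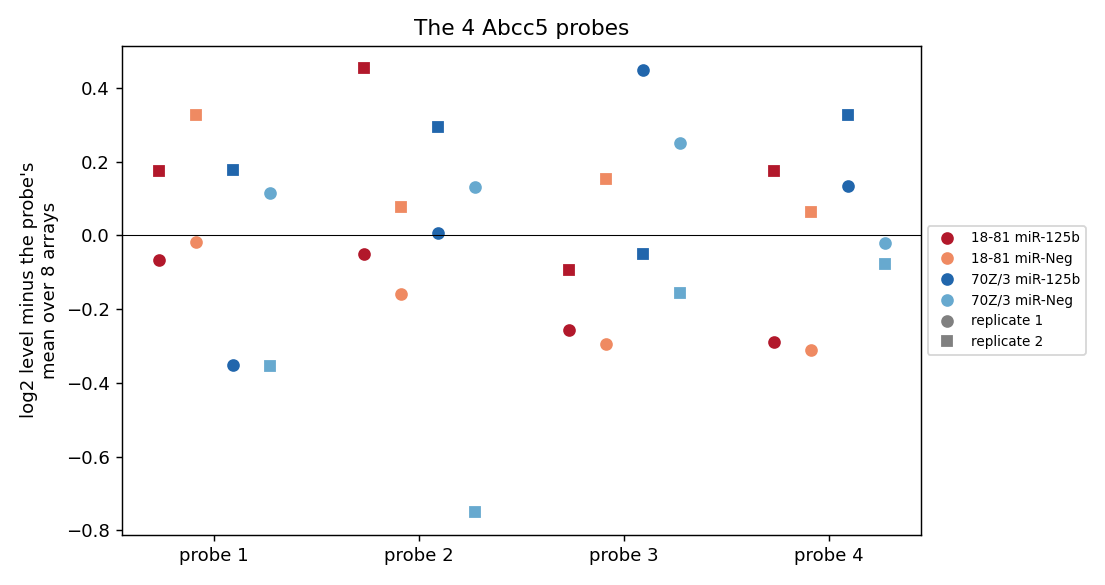
Log2 level of each Abcc5 probe on each array minus that probe's mean over the 8 arrays, with 18-81 groups left of 70Z/3 groups and miR-125b left of miR-Neg; probes 1 and 2 carry one RefSeq accession and probes 3 and 4 the other, and probe 1 is the brightest. The arrays of the 2 lines overlap in each probe.

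The sterol exporters behaved differently from each other. Abcg1 (probe at chr17:31252580-31252639, plus strand, mm9) read 3.87 and 4.62 in 18-81 with miR-125b, 3.66 and 4.15 in 18-81 with miR-Neg, −0.97 and −0.36 in 70Z/3 with miR-125b, and −0.42 and −0.58 in 70Z/3 with miR-Neg. The lines were far apart on every array. The difference was 4.66 ± 0.26, 25.2-fold higher in 18-81 (limma adjusted p = 3.42e-06), with replicate pairs at 4.84, 4.99, 4.08 and 4.72. Abca1 (probe at chr4:53043944-53044003, minus strand, mm9) read −1.41 and −1.46 in 18-81 with miR-125b, −1.90 and −1.37 in 18-81 with miR-Neg, −0.74 and −1.20 in 70Z/3 with miR-125b, and −1.16 and −1.22 in 70Z/3 with miR-Neg. Every 18-81 value was below every 70Z/3 value, yet the difference of −0.46 ± 0.22 did not pass (limma adjusted p = 0.152).

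Of 24 further ABC genes tested among 44 listed, 2 were higher and 6 lower in 18-81, 33.3% in all against the 31.7% of all genes. The lower ones included Abcb9, the lysosomal peptide transporter, at −3.06 ± 0.62, Abca13 at −2.09 ± 0.40 (well above background on 2 of the 4 18-81 arrays), Abcb10, a mitochondrial transporter of the erythroid lineage, at −1.19 ± 0.21, and Abca17 at −1.12 ± 0.26 (limma adjusted p = 0.00636, 0.00457, 0.00293 and 0.0124 in that order). Abcd3, a peroxisomal fatty acid transporter, was higher at 1.06 ± 0.26 (limma adjusted p = 0.0166). Cftr, the chloride channel of this family, was called lower but was well above background on none of the 18-81 arrays and on 2 of the 4 70Z/3 arrays, and so has no fold. It is among the 6 counted as lower. The median line difference of the 24 genes was −0.05, and that of all genes was 0.02.

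Of 22 cholesterol efflux and LXR pathway genes tested, 3 were higher and 2 lower in 18-81, or 22.7% against the 31.7% of all genes. Pltp, the phospholipid transfer protein, was called higher (limma adjusted p = 0.000389), at a mean level of −1.29 in 18-81. Pltp was well above background on only 1 of the 4 70Z/3 arrays and so entered the fit through 18-81 alone. Its p rests on 70Z/3 values that mostly carry no level, so no fold is given. It is among the 3 counted as higher. Nr1h3, which encodes LXR-alpha, was 1.22 ± 0.25 higher (limma adjusted p = 0.00723). Its probe was dim in 70Z/3, at a mean level of −3.61, and was well above background on 3 of the 4 70Z/3 arrays. Arl4c was lower in 18-81, at −0.73 ± 0.23 (limma adjusted p = 0.0429).

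Of 25 drug-handling genes tested, 5 were higher and 5 lower in 18-81, or 40% against the 31.7% of all genes. Slc7a11, the cystine importer that feeds glutathione synthesis, was not well above background on any 70Z/3 array and entered the fit through 18-81 alone. In 18-81 it was at least 1.78-fold higher than the 70Z/3 floor (limma adjusted p = 0.000201, resting on 70Z/3 values that carry no level). It is among the 5 counted as higher. The glutathione transferase Gsta4 was −2.39 ± 0.25, the major vault protein gene Mvp −2.41 ± 0.37 (well above background on 3 of the 4 18-81 arrays) and the thiopurine methyltransferase gene Tpmt −1.24 ± 0.19 in 18-81 relative to 70Z/3 (limma adjusted p = 0.000137, 0.00141 and 0.00159 in that order).

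**Figure D3:**
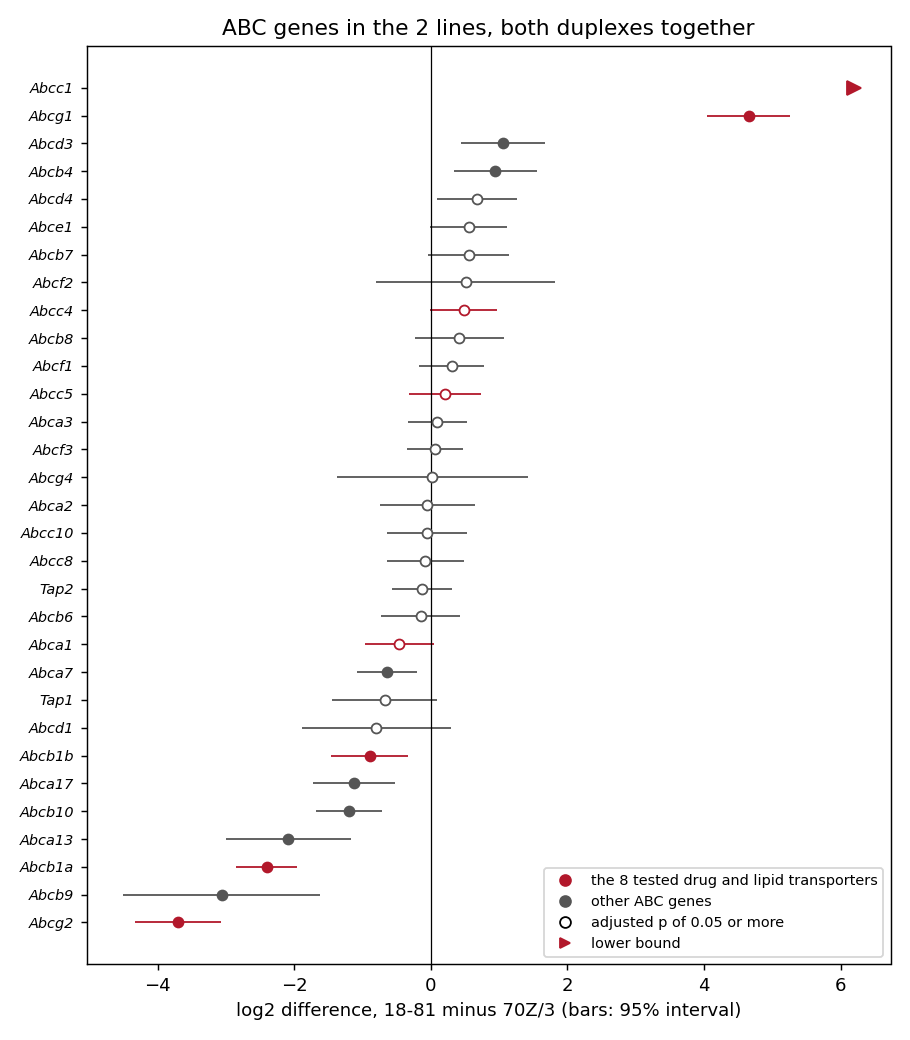
Log2 difference, 18-81 minus 70Z/3, with 95% intervals from limma (4 arrays per line) for the 8 tested transporters in red and further ABC genes in grey. Open symbols did not reach an adjusted p below 0.05, and the triangle for Abcc1 is a lower bound. Cftr is left out: it was well above background on 0 of the 4 18-81 arrays and on 2 of the 4 70Z/3 arrays. Abcg4 is shown, although it was well above background on only 3 of the 4 arrays of each line. Abcg2 is the lowest and Abcc1 and Abcg1 are the highest of the genes shown.

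Over the 8 arrays, the genes whose levels correlated most closely with each called transporter that was measured in both lines were, as Pearson's r, Gm5811 (0.993), Cage1 (0.991) and Gm5813 (0.991) for Abcb1a, Vps50 (0.968), Gfod2 (0.966) and Rnf135 (0.964) for Abcb1b, Slc35f3 (0.998) and H2-Ab1 (0.999) among the 3 nearest to Abcg1, and Trim21 (0.999) and Fech (0.998) among the 3 nearest to Abcg2. The arrays form 2 clusters by line, so these values mostly describe the line difference.

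The effect of the miR-125b duplex was the question of the study, and Abcb1a was the only transporter that read higher after miR-125b in every replicate pair of both lines with no overlap between the groups. Its difference, miR-125b minus miR-Neg, was 0.40 and 0.43 in the 18-81 pairs (mean 0.41 ± 0.27 SE, 1.33-fold) and 1.02 and 1.54 in the 70Z/3 pairs (mean 1.28 ± 0.27, 2.43-fold). The rule of choice used these values, so no test is given. Over all genes, 1.04% (196 genes) were higher without overlap in both lines. The median of all genes was −0.13 in 70Z/3 and 0.03 in 18-81, and relative to it Abcb1a was higher by 1.42 in 70Z/3 and by 0.39 in 18-81. With quantile normalization these became 1.29 and 0.38. With normexp background correction and an offset of 50 they became 1.24 and 0.20, the latter from an 18-81 mean of 0.22. The 18-81 difference minus the 70Z/3 difference was −0.87 ± 0.39.

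The paralog Abcb1b did not share that pattern. Its differences were 0.12 and −0.43 in 18-81 and 0.59 and −0.21 in 70Z/3, with opposite signs in the 2 experiments of each line.

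Abcg2 and Abcc4 each had opposite signs in the lines. Abcg2 differed by 0.06 and 0.45 in 18-81, where the groups overlapped, and by −0.31 and −1.08 in 70Z/3, where they did not. Abcc4 differed by 0.06 and 0.14 in 18-81 and by −0.01 and −0.81 in 70Z/3, without overlap in either line. In 70Z/3 the lack of overlap rests on replicate 1 levels of 1.048 with miR-125b and 1.057 with miR-Neg. The larger 70Z/3 difference of both genes came from the replicate 2 pair, which holds the dimmest array, 70Z/3 miR-Neg. The part of that array's signal in the difference was not tested.

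The other transporters had differences that were mixed in sign between pairs or lines, or near 0. Abcg1 differed by 0.22 and 0.48 in 18-81 and by −0.55 and 0.21 in 70Z/3. Abca1 differed by 0.49 and −0.09 in 18-81 and by 0.42 and 0.02 in 70Z/3. The brightest Abcc5 probe differed by −0.05 and −0.15 in 18-81 and by −0.47 and 0.53 in 70Z/3. Of its 3 other probes, 1 (chr16:20404654-20404713) read higher after miR-125b in all 4 pairs, by 0.02 and 0.11 in 18-81, where the groups overlapped, and by 0.16 and 0.40 in 70Z/3, where they did not. The other two had mixed signs. Abcc1 differed by 0.01 and −0.05 in 18-81 and had no measured level in 70Z/3.

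In all, 2 transporters in 18-81 were higher after miR-125b without overlap (Abcb1a and Abcc4; background 7.79% of all genes) and 0 were lower (background 5.17%). In 70Z/3, 1 was higher (Abcb1a; background 14.9%) and 3 were lower (Abcg2, Abcc4 and the unmeasured Abcc1; background 22.7%). The median over the 8 tested transporters was 0.15 in 18-81 and −0.07 in 70Z/3. Over the 7 measured in both lines it was 0.20 in 18-81 and 0.03 in 70Z/3, and leaving out 1 array took the median over 8 in 18-81 to as little as 0.00054, so no direction is read from these medians. Across all genes, limma with Benjamini-Hochberg adjustment called 0 genes in 18-81, 0 in 70Z/3 and 0 in the average of both lines (each 0% of the genes tested), with 230, 1104 and 508 genes at an unadjusted p below 0.05.

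**Figure D4:**
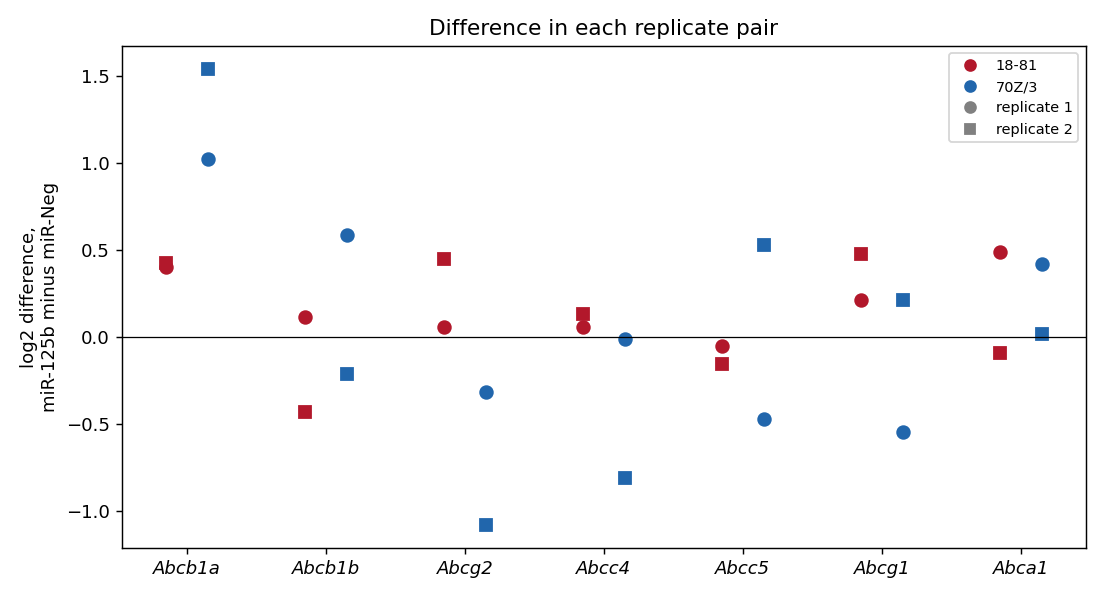
Log2 difference, miR-125b minus miR-Neg, in each replicate pair for the 7 transporters measured in both lines, with 18-81 in red left of 70Z/3 in blue, and circles and squares for replicates 1 and 2. Abcb1a lies above 0 in all 4 pairs, at 0.40 to 1.54, and Abcg2 lies above 0 in 18-81 and below 0 in 70Z/3.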

How the data were processed

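Total RNA of 8 samples was hybridised to one-colour Cy3 arrays. The deposited scanner files hold processed signal intensity per spot from Agilent Feature Extraction 10.7.3.1, per the file headers, with probe positions on mm9. The deposited series table holds normalized intensities, which were put on the log2 scale here and served only as an alternative. Here, log2 of the processed intensity was centred on each array's 75th percentile over non-control spots, outlier-flagged spots were removed and the spots of a probe averaged. Genes entered the test if the scanner called a probe well above background in both replicates of some group, and each was represented by its brightest probe (18792 genes, 8 of the 9 transporters, 11 of their 12 probes). limma 3.58.1 in R 4.3.3 fitted 4 group means, with Benjamini-Hochberg adjustment over all genes. The script was tested on simulated data. The number of arrays limits the precision, and p-values measure the spread between 2 experiments.

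Samples were grouped by their labels. Same-numbered samples shared an experiment and a slide row; their deviations from the group means correlated at 0.37 to 0.65, so the numbers pair the samples. The fit without a block was the main one, and fits with it were alternatives, as were other backgrounds, normalizations, filters, probe rules and each array left out.

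The transporters, the 3 gene lists and the markers were chosen with earlier results of these data known. All 9 transporters are described; of the other ABC genes at most 6, and of each other list at most 4, were named, by smallest p in the comparison of lines. Some genes that this rule would name are not reported here. Abcb4 was named outside that rule, after its value was seen. The nearest genes by Pearson's r were the top 3.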

Additional observations from a re-analysis of the deposited data

Results flagged for a closer look

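Abcg2 and Abcc4 had differences between miR-125b and miR-Neg that were positive in both 18-81 pairs and negative in both 70Z/3 pairs. For Abcc4 the 70Z/3 replicate 1 difference was −0.009, so near 0 that it gives no direction. Its replicate 2 difference, −0.81, came from the pair with the dimmest array. The 18-81 difference minus the 70Z/3 difference was 0.95 ± 0.54 for Abcg2 and 0.50 ± 0.43 for Abcc4 (SE, log2). For Abcg2 it was 0.52 without 70Z/3 miR-Neg replicate 2 and 0.60 without 18-81 miR-125b replicate 2, and 1.38 at most with 1 array left out. For Abcc4 it was 0.18 without 70Z/3 miR-Neg replicate 2 and 0.83 without 70Z/3 miR-Neg replicate 1. This difference of duplex effects was not tested for these genes, since their pair differences were known when they were chosen. Over all 18791 genes, limma called 0 genes for this difference after Benjamini-Hochberg adjustment, and 606 had an unadjusted p below 0.05.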

How the results depend on the processing

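Abcb1a, Abcg2 and Abcg1 kept the direction and the call of their line difference under all 20 alternatives, with ranges outside the single-array omissions of −2.84 to −1.78, −4.17 to −3.14 and 4.40 to 4.91 in that order. Abcc1 stayed higher under the 19 that gave it a value, whose sizes are not measured differences. For Abcb1a minus Abcb1b, exchanging arrays only within an experiment, an alternative chosen after seeing the data, gave an exact permutation p of 0.0556 in place of 0.0286. Neither is read as support for an unequal difference. The count of genes past the threshold between lines, 5965, was 3513 with genes well above background on all arrays (14654 tested), 9032 with the replicate block by number, 3975 within the miR-125b arrays alone, and 4565 to 5710 with 1 array left out. The replicate block changed no call among the transporters. The number of transporters called was 4 to 5 with 1 array left out and 4 to 5 under the other alternatives. Abcc5 reversed to −0.015 with the mean of its probes. The median difference of the tested transporters after miR-125b in 70Z/3, −0.07, was 0.015 with quantile normalization, 0.021 in the series table, 0.032 without the filter and with the stricter filter, 0.15 with each probe alone and 0.011 with the mean of probes; leaving out 1 array gave −0.28 to −0.0079. In 18-81 the median, 0.15, was 0.20 with the stricter filter and 0.096 with each probe alone, and 0.00054 to 0.22 with 1 array left out. The average over lines, −0.01, ranged over −0.097 to 0.028 with 1 array left out. The difference of these effects, 0.24, was −0.0012 with quantile normalization, −0.0089 in the series table, −0.023 without the filter and with the stricter filter, −0.13 with each probe alone, and −0.0023 to 0.39 with 1 array left out. The cause of these shifts was not tested. With 2 arrays per group, probes near background, such as those of Abcc1 in 70Z/3 and Abcc3, carry no level.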
